A study of Mus musculus with 6 samples.

Results

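The 10 genes described here, Nqo1, Gclc, Gclm, Srxn1, Txnrd1, Slc7a11, Gsr, Pgd, Taldo1 and Ephx1, encode redox and detoxification enzymes and a transporter that are known targets of the transcription factor NRF2. They were taken by symbol, whatever their values, out of 55487 genes in the deposited tables. Poly(A) RNA was sequenced from the livers of 6 male mice aged 8 weeks on standard chow, 3 named WT (BALB_cJ) and 3 named SCADD (BALB_cBYJ). SCADD stands for deficiency of short-chain acyl-CoA dehydrogenase, a mitochondrial enzyme that starts the breakdown of short-chain fatty acids. The series text calls the 3 animals of each group biological replicates. Deficiency and substrain coincide in all 6 animals, so the enzyme defect and any other difference between the substrains cannot be told apart.

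NRF2, encoded by Nfe2l2, is held in the cytoplasm and marked for degradation by KEAP1. Oxidants and electrophiles disturb KEAP1, and NRF2 then enters the nucleus, pairs with a small MAF protein and binds antioxidant response elements near its target genes. BACH1 competes for the same elements and represses them. In liver the pathway is known for glutathione synthesis, for the NADPH-dependent reduction of glutathione and thioredoxin, and for the handling of quinones and epoxides.

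Promoter sequence was searched because an antioxidant response element is the shared feature by which these genes are usually grouped. The motifs were TGACNNNGC, the core of the element, and TGAGTCAGC, part of the related MAF recognition element, each read on both strands. TGAGTCAGC does not contain the core, though the motifs can overlap in a longer sequence. They were chosen after the expression values were seen. RefSeq promoter windows of 300 bases on GRCm38.p6, 250 before and 50 after the gene start, were at hand for 8 members in 11 windows. None was at hand for Gsr and Gclc. The core was found for 4 of the 8 members, in 4 of 11 windows, against 12.39% of all 32851 windows. TGAGTCAGC was found for Srxn1 alone among these members, against 0.414% of all windows. The windows of Txnrd1, which passed the test below, and of Gclm and Srxn1, which did not, are shown around the match, which is in capitals.
Gclm, chr3:122245383-122245471, plus strand, match on the opposite strand: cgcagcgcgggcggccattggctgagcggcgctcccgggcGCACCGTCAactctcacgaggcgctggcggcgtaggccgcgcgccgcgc
Srxn1, chr2:152105439-152105527, plus strand, match on the same strand: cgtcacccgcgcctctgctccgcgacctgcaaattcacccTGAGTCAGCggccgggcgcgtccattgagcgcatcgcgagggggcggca
Txnrd1, chr10:82859074-82859162, plus strand, match on the opposite strand: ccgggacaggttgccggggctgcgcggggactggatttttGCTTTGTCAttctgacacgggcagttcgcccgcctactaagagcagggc
The matches begin 134 bases before the annotated start in Gclm, 45 before it in Srxn1 and 92 before it in Txnrd1. A match is a run of letters and was not tested for binding. The Srxn1 sequence shows the MAF element. Its core match begins 28 bases after the annotated start, outside the stretch printed. The Txnrd1 window belongs to a RefSeq start inside the gene's annotated span, and the other Txnrd1 windows held no match. The other member with the core was Pgd. Its match begins 3 bases after a RefSeq start inside the gene's annotated span, and its other window held none. The windows of Nqo1, Slc7a11, Taldo1 and Ephx1 held no match, and sequence outside the windows was not searched.

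The WT libraries held 23991104 to 27148756 reads counted in genes and the SCADD libraries 16948986 to 23912744. Unmapped reads made up 13.6% to 16.4% of WT libraries and 25.1% to 36.6% of SCADD libraries, and their part in the results was not tested. Acads, the gene of the deficient enzyme, checked the labels: its level was 182 ± 15.2 CPM in WT and 100.2 ± 3.78 CPM in SCADD (SD, n = 3 each), or in log2 a fold change of -0.86 ± 0.13 (SE), at an edgeR adjusted p of 0.00407. CPM are read counts relative to the size of each library, here with sizes scaled by TMM, a correction for differences in library composition. The summed level of 10 hepatocyte markers was 121999 to 175835 CPM in WT and 106086 to 152753 CPM in SCADD, with none under 0.1 CPM. The sums rest mostly on Alb, with means of 103786 CPM in WT and 100298 CPM in SCADD. Of the 10, 1 was called lower and 0 higher, against 2.8% and 4.22% of all genes tested. The called marker was Ahsg, with means of 9694 and 4923 CPM (log2 fold change -0.98, edgeR adjusted p = 0.0142). Of the 10 log2 fold changes, 4 were positive and 6 negative.

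Gsr and Txnrd1, the reductases of glutathione and thioredoxin, rose in SCADD livers. Gclc, Ephx1, Nqo1 and Gclm had higher means in SCADD but missed the adjusted threshold, and Srxn1, Taldo1 and Pgd differed least from WT. Slc7a11 was too low to test. Of the 9 members that passed the filter on low counts, 2 were called higher and 0 lower at an edgeR adjusted p under 0.05, against 4.22% of 13498 genes called higher, 2.8% called lower and 7.02% in either direction. At an unadjusted p under 0.05, 6 of the 9 were higher and 0 lower, against 12.4% and 10.2% of all genes tested. In 5 members, Gclc, Gclm, Txnrd1, Gsr and Ephx1, each SCADD library was above each WT library, against 14.9% of all genes tested. The reverse held for 0 members and for 13.1% of all genes tested. The log2 fold change was positive in 8 of 9 members, with a median of 0.56, beside -0.00078 over all genes tested.

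**Figure D1:**
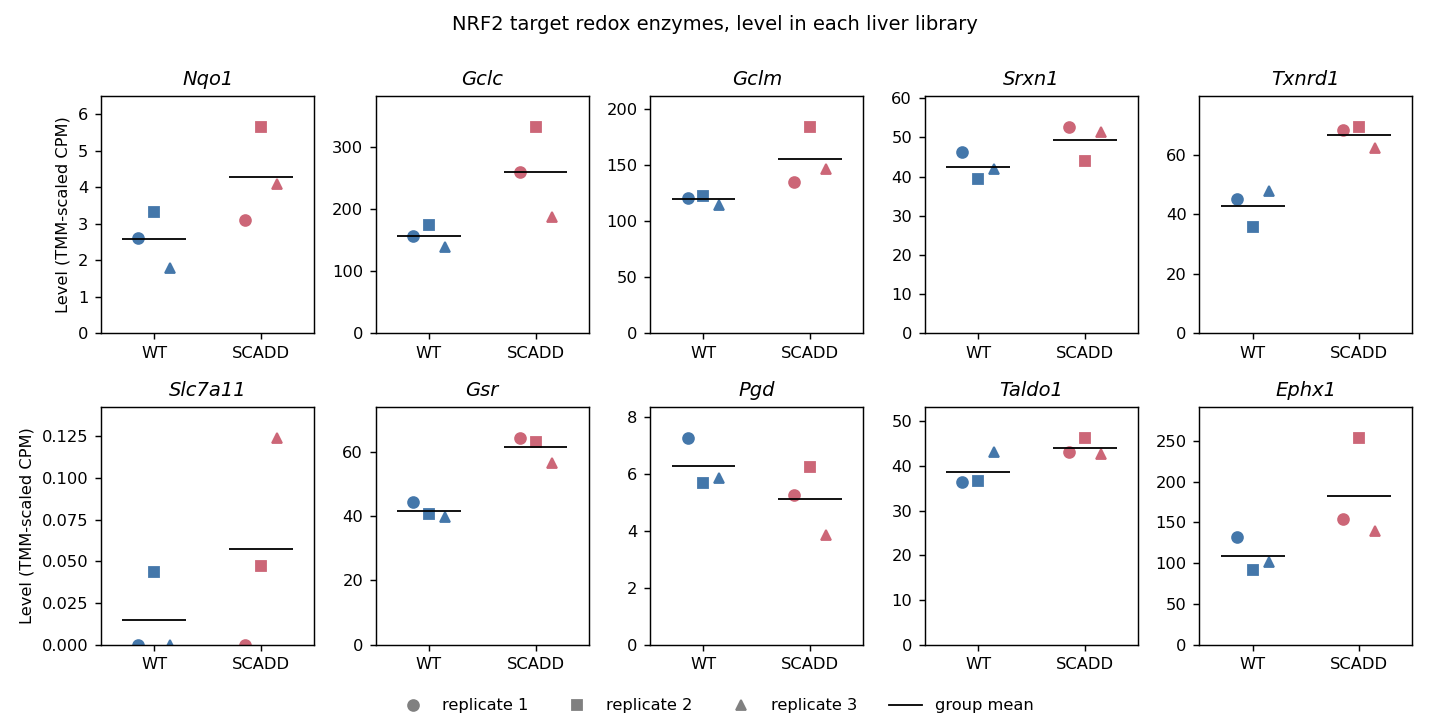
Level of each of the 10 genes in TMM-scaled CPM (vertical axes, each from 0) in the WT and SCADD groups; points are libraries, shapes are replicates and lines are group means of 3. The Gsr and Txnrd1 groups are separate, while the Pgd and Taldo1 groups overlap.

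Gsr (ENSMUSG00000031584, chromosome 8, 33652523 to 33698163, plus strand, GRCm38) encodes glutathione reductase, which returns oxidised glutathione to its reduced form with NADPH. WT replicates 1, 2 and 3 had 44.5, 40.7 and 39.9 CPM, and SCADD replicates 1, 2 and 3 had 64.5, 63.3 and 56.7 CPM. The lowest SCADD library was above the highest WT library. WT averaged 41.7 ± 2.48 and SCADD 61.5 ± 4.20 CPM (SD, n = 3 each). EdgeR gave a log2 fold change of 0.56 ± 0.12 (SE) with an adjusted p of 0.0214, or 1.47-fold.

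Txnrd1 (ENSMUSG00000020250, chromosome 10, 82833951 to 82897712, plus strand) encodes the cytosolic thioredoxin reductase, a selenoprotein that also uses NADPH. WT replicates 1, 2 and 3 had 45.04, 35.6 and 47.8 CPM, and SCADD replicates 1, 2 and 3 had 68.2, 69.4 and 62.2 CPM. The groups were separate here too, and the SCADD libraries lay closer together than the WT libraries. WT averaged 42.8 ± 6.39 and SCADD 66.6 ± 3.85 CPM (SD, n = 3 each). EdgeR gave a log2 fold change of 0.64 ± 0.14 (SE) with an adjusted p of 0.0232, or 1.55-fold.

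Neither call held in all 6 fits that left out 1 library. Over all genes tested, the fits without WT replicate 1, 2 or 3 or SCADD replicate 1 called 395 to 697 genes, against 947. Gsr lost its call without WT replicate 1 (edgeR adjusted p = 0.0526), without WT replicate 2 (0.104), without WT replicate 3 (0.106) and without SCADD replicate 1 (0.116), and Txnrd1 lost it without WT replicate 1 (0.0569), without WT replicate 2 (0.109) and without SCADD replicate 1 (0.0957). On the log2(TPM + 1) scale, TPM being the RSEM level relative to transcript length and library, limma's adjusted p was 0.677 for Gsr and 0.322 for Txnrd1, and the TPM values are described further below.

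Srxn1 (ENSMUSG00000032802, chromosome 2, 152105516 to 152111376, plus strand) encodes sulfiredoxin, which repairs over-oxidised peroxiredoxins. Its level was 46.3, 39.3 and 42.0 CPM in WT and 52.8, 44.0 and 51.4 CPM in SCADD replicates 1, 2 and 3. Its groups overlapped, since SCADD replicate 2 was below WT replicate 1. The log2 fold change was 0.21 ± 0.13 (SE; edgeR adjusted p = 0.376).

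Gclc and Gclm encode the catalytic and the modifier subunit of glutamate-cysteine ligase, the rate-limiting enzyme of glutathione synthesis. Gclc (ENSMUSG00000032350, chromosome 9, 77754535 to 77794485, plus strand) is the catalytic subunit. WT replicates 1, 2 and 3 had 157, 174 and 138 CPM, and SCADD replicates 1, 2 and 3 had 259, 333 and 187 CPM. The groups did not overlap, but the SCADD libraries were spread widely, with SCADD replicate 3 close to WT replicate 2. WT averaged 157 ± 18.0 and SCADD 259.6 ± 72.8 CPM (SD, n = 3 each). EdgeR gave a log2 fold change of 0.73 ± 0.20 (SE) with an adjusted p of 0.0586. Without SCADD replicate 3 the edgeR adjusted p of Gclc was 0.0033, and with DESeq2 on all libraries it was 0.0106. Gclc was called in only 4 of the 21 other settings. No other fit that left out 1 library called it, with edgeR adjusted p up to 0.204.

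Gclm (ENSMUSG00000028124, chromosome 3, 122245557 to 122270732, plus strand) was at 121, 123 and 115 CPM in WT and at 135, 185 and 146 CPM in SCADD replicates 1, 2 and 3. SCADD replicate 2 stood above the other 2 SCADD libraries, and every SCADD library was above every WT library. The log2 fold change was 0.38 ± 0.15 (SE; edgeR adjusted p = 0.165), and without SCADD replicate 2 it was 0.23 (0.406).

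The subunits were compared within each library by their ratio per length. The TPM of Gclc divided by that of Gclm gave 0.494, 0.565 and 0.469 for WT replicates 1, 2 and 3 and 0.737, 0.635 and 0.641 for SCADD replicates 1, 2 and 3. All 3 SCADD ratios were above all 3 WT ratios. The mean log2 ratio was -0.98 ± 0.14 in WT and -0.58 ± 0.12 in SCADD (SD, n = 3 each), a difference of 0.40, and by exact two-sided permutation p was 0.1, the smallest value that 3 against 3 libraries allow. From counts divided by exonic length the difference was 0.33 and the exact permutation p was 0.3. The transcript length that RSEM used for Gclm ranged from 1593 bases in SCADD replicate 2 to 2300 bases in SCADD replicate 3, while that of Gclc was 3423 bases in every library.

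Slc7a11 (ENSMUSG00000027737, chromosome 3, 49892526 to 50443614, minus strand) encodes the transport subunit of the cystine-glutamate exchanger, which brings in cystine for glutathione synthesis. WT replicates 1, 2 and 3 had 0, 1 and 0 counts, and SCADD replicates 1, 2 and 3 had 0, 1 and 2 counts. These counts are at or under the limit of 3 counts that a count of 0 allows, so a difference was not detectable at this depth.

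Nqo1 (ENSMUSG00000003849, chromosome 8, 107388225 to 107403206, minus strand) encodes the quinone reductase that is the classical reporter gene of NRF2. Its level was low, at 2.60, 3.32 and 1.80 CPM in WT and 3.10, 5.66 and 4.09 CPM in SCADD replicates 1, 2 and 3. SCADD replicate 1 was below WT replicate 2. WT averaged 2.58 ± 0.761 and SCADD 4.29 ± 1.29 CPM (SD, n = 3 each). EdgeR gave a log2 fold change of 0.74 ± 0.28 (SE) with an adjusted p of 0.152. The SE was the largest among the 9 members tested, and without SCADD replicate 2 the log2 fold change of Nqo1 was 0.47.

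Ephx1 (ENSMUSG00000038776, chromosome 1, 180976210 to 181020904, minus strand) encodes microsomal epoxide hydrolase, which turns epoxides of drugs and other compounds into diols. Its level was 133, 91.6 and 102 CPM in WT and 154, 254 and 139 CPM in SCADD replicates 1, 2 and 3. Its groups were separate by a small margin, and SCADD replicate 2 lay far above the rest. WT averaged 109 ± 21.4 and SCADD 183 ± 62.4 CPM (SD, n = 3 each). EdgeR gave a log2 fold change of 0.75 ± 0.23 (SE) with an adjusted p of 0.0857. Without SCADD replicate 2 the log2 fold change of Ephx1 was 0.43, without SCADD replicate 3 the edgeR adjusted p was 0.048, and with DESeq2 it was 0.0246. Ephx1 was called in only 3 of the 21 other settings. Every other fit that left out 1 library missed the threshold, with edgeR adjusted p up to 0.279. Whether Nqo1 and Ephx1 overlap depends on the scaling: in CPM without TMM, Nqo1 was separate by the margin of 3.17 against 3.18 CPM, and Ephx1 overlapped, with 132 CPM in SCADD replicate 3 under 139 CPM in WT replicate 1. The number of separate members was 5 on either scale.

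Pgd and Taldo1 belong to the pentose phosphate pathway, which supplies NADPH. Pgd (ENSMUSG00000028961, chromosome 4, 149149991 to 149166771, minus strand), 6-phosphogluconate dehydrogenase of the oxidative branch, was at 7.27, 5.68 and 5.86 CPM in WT and 5.26, 6.23 and 3.85 CPM in SCADD replicates 1, 2 and 3. It had the only negative log2 fold change among the 9, -0.29 (SE 0.21, edgeR adjusted p = 0.458), and its groups overlapped. It was -0.13 without SCADD replicate 3, -0.18 without WT replicate 1 and -0.46 without SCADD replicate 2. Taldo1 (ENSMUSG00000025503, chromosome 7, 141392199 to 141402968, plus strand), transaldolase of the non-oxidative branch, was at 36.4, 36.7 and 43.1 CPM in WT and 43.2, 46.3 and 42.7 CPM in SCADD. Its log2 fold change was 0.19 ± 0.13 (SE; edgeR adjusted p = 0.424), and its groups overlapped too.

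The ratio of Pgd to Taldo1 in TPM came to 0.110, 0.0801 and 0.0725 for WT replicates 1, 2 and 3 and to 0.0622, 0.0690 and 0.0516 for SCADD replicates 1, 2 and 3. The mean log2 ratio was -3.54 ± 0.31 in WT and -4.05 ± 0.21 in SCADD (SD, n = 3 each), a difference of -0.51, with the lowest WT ratio above the highest SCADD ratio. By exact two-sided permutation p was 0.1, again the smallest that this design allows, and adjusted over the 2 ratios tested the value was 0.1 as well.

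**Figure D2:**
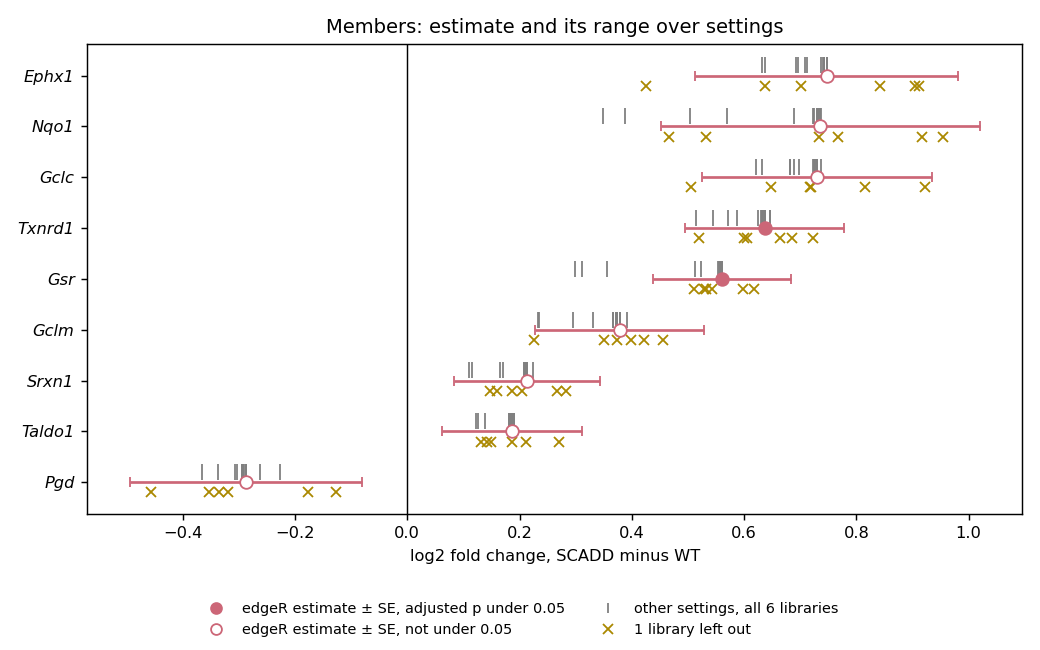
Log2 fold change of SCADD against WT for each tested member (horizontal axis), with circles and bars for the edgeR estimate and its SE, grey ticks for the other settings on all 6 libraries and crosses for fits with 1 library left out. Gsr at 0.56 and Txnrd1 at 0.64 are the only members with an adjusted p under 0.05, and Pgd at -0.29 is the only negative one.

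Per length, the members covered a wide range of levels. In WT livers the mean TPM was highest for Gclm at 72.1 ± 6.85 and Ephx1 at 68.2 ± 17.6, followed by Gclc at 36.8 ± 5.24 and Taldo1 at 33.3 ± 1.72 (SD, n = 3 each). Srxn1 was at 16.7 ± 2.09, Gsr at 14.95 ± 2.55 and Txnrd1 at 12.5 ± 2.10 TPM. Pgd at 2.91 ± 0.667 and Nqo1 at 1.78 ± 0.652 TPM were the lowest of those tested. Within this order the WT libraries overlapped between Gclm and Ephx1, Gclc and Taldo1, Srxn1 and Gsr, and Gsr and Txnrd1, and did not overlap between the other neighbours.

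In SCADD livers the mean TPM was 112 ± 53.95 for Ephx1, 91.2 ± 42.2 for Gclm and 61.0 ± 26.7 for Gclc (SD, n = 3 each), and the libraries of these genes overlapped. SCADD replicate 3 had the lowest TPM of all 6 libraries for 5 of the 9 tested members. Gsr was at 22.9, 23.2 and 11.7 TPM in SCADD replicates 1, 2 and 3, and Txnrd1 at 20.2, 22.0 and 13.3 TPM. Over 5931 genes with a mean of at least 5 TPM the median TPM was 13.7 in SCADD replicate 3 and 16.7 to 18.95 in the other libraries. The summed TPM of the major urinary protein genes was 148379 in SCADD replicate 3 and 32278 to 85257 in the others, and its part in the TPM of the members was not tested. RSEM assigned Gsr 61.9% and Gclc 70.6% as many reads as the STAR counts, against a median of 85.4% over all genes tested.

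**Figure D3:**
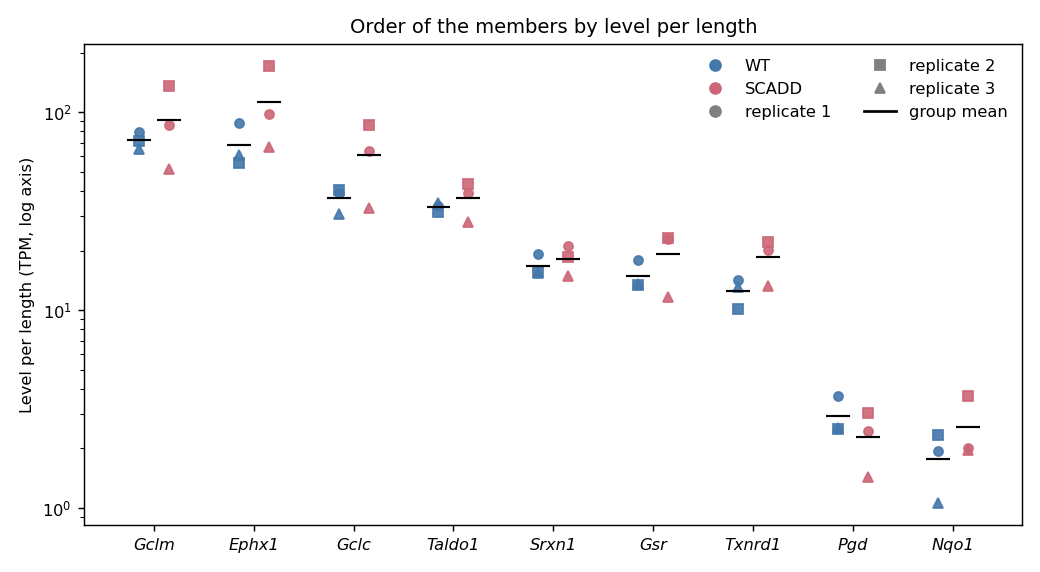
TPM of the 9 tested members (vertical log axis), with points for libraries, colours for the groups, shapes for the replicates and lines for the group means of 3. Gclm and Ephx1 lie highest and Pgd and Nqo1 lowest, and the SCADD replicate 3 points of Gsr and Gclm lie under those of the other SCADD libraries.

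SCADD replicate 2 had the highest level of 6 of the 9 tested members, against 22.9% of all genes tested. The exceptions were Srxn1 and Gsr, highest in SCADD replicate 1, and Pgd, highest in WT replicate 1. The spread among SCADD libraries was wide for Gclc and Ephx1 and narrow for Txnrd1 and Gsr.

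The genes whose profile over the 6 libraries was most like that of the called members were found by the root-mean-square difference of centred log2(CPM + 0.1) among 11687 genes. For Txnrd1 they were Por, at 0.0521, and Chd3, at 0.0530. For Gsr they were Ptpn11, at 0.0342, and Ubp1, at 0.0362. Por encodes the reductase that passes electrons from NADPH to cytochrome P450 enzymes.

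**Figure D4:**
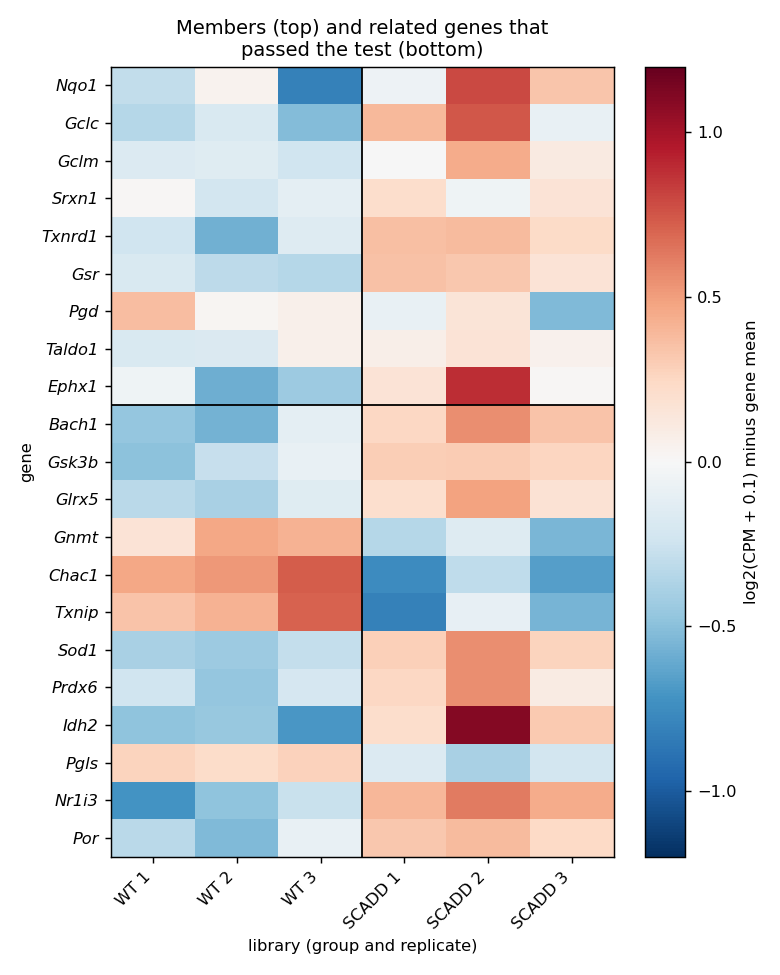
Centred log2(TMM-scaled CPM + 0.1) of the 9 tested members (top) and of the called genes of related lists (bottom) in each of the 6 libraries; red is above and blue below the gene's mean. Gsr and Txnrd1 are above their mean in all 3 SCADD libraries, while Ephx1, Gclc and Nqo1 are highest in SCADD replicate 2.

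Among 12 regulators of the pathway, all tested, 2 rose and 0 fell, against 4.22% and 2.8% of all genes tested. Their median log2 fold change was 0.19. Bach1, the repressor at the same elements, was at 12.0, 11.2 and 15.3 CPM in WT and 19.7, 24.6 and 21.03 CPM in SCADD replicates 1, 2 and 3. Its groups were separate, and the log2 fold change was 0.76 ± 0.16 (SE; edgeR adjusted p = 0.0157). Without WT replicate 1 or WT replicate 2 the edgeR adjusted p of Bach1 was 0.0612 and 0.0891. Gsk3b, a kinase that marks NRF2 for degradation apart from KEAP1, had 11.4 ± 1.59 CPM in WT and rose to 16.9 ± 0.322 CPM in SCADD (SD, n = 3 each). The test gave a log2 fold change of 0.57 ± 0.14 (SE) with an edgeR adjusted p of 0.0374. Among the 6 fits that left out 1 library, the call of Gsk3b held only without SCADD replicate 3 (0.0275), and the others gave 0.0575 to 0.137.

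Nfe2l2 and Keap1, the central pair of the pathway, did not pass the test and were chosen after their values were seen. Nfe2l2 was at 28.7, 24.1 and 32.1 CPM in WT and 33.6, 34.3 and 35.1 CPM in SCADD replicates 1, 2 and 3. Its groups were separate, with a log2 fold change of 0.28 ± 0.14 (SE), at an edgeR adjusted p of 0.258. Keap1 had a log2 fold change of 0.14 ± 0.14 (SE), at an edgeR adjusted p of 0.607, and its groups overlapped; on log2(TPM + 1) the value was -0.0087.

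Of 25 other NRF2 targets, 23 were tested and 0 passed the edgeR test in either direction, against 7.02% of all genes tested. Their median log2 fold change was 0.20. At an unadjusted p under 0.05, 2 were higher and 4 lower, against 12.4% and 10.2% of all genes tested. In either direction this was 26.1% of the list, against 22.7% of all genes tested. DESeq2 on the same genes also called 0. The smallest p belonged to Cbr3, a carbonyl reductase, at 0.614 ± 0.123 CPM in WT and 0.293 ± 0.0150 CPM in SCADD (SD, n = 3 each), with a log2 fold change of -1.07 ± 0.38 (SE), at an edgeR adjusted p of 0.117. Next was Gstm3, a glutathione transferase, with a log2 fold change of 1.28 ± 0.48 (SE), at an edgeR adjusted p of 0.142, which was 0.73 (0.447) without SCADD replicate 2. Hmox1, the haem oxygenase that is commonly read as an NRF2 target and was chosen here after its values were seen, was at 7.09 ± 0.787 CPM in WT and 7.46 ± 0.855 CPM in SCADD (SD, n = 3 each), with an edgeR adjusted p of 0.838 and a log2 fold change of 0.07 that was -0.031 without SCADD replicate 2.

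The genes around Gclc and Gclm in glutathione supply and use moved in both directions. Of 16 tested, 1 rose and 2 fell, against 4.22% and 2.8% of all genes tested. Their median log2 fold change was 0.06. Glrx5, a mitochondrial glutaredoxin of iron-sulfur cluster assembly, rose from 22.4 ± 1.95 CPM to 33.5 ± 4.14 CPM (SD, n = 3 each; 0.58 ± 0.14 SE in log2, edgeR adjusted p = 0.0304). Gnmt, the glycine methyltransferase that uses S-adenosylmethionine, fell from 720.0 ± 77.0 to 445 ± 59.9 CPM (-0.69 ± 0.17 SE in log2, edgeR adjusted p = 0.0334). Chac1, which degrades glutathione, fell from 0.868 ± 0.0956 to 0.340 ± 0.0742 CPM (-1.34 ± 0.35 SE in log2, edgeR adjusted p = 0.0438), and each of the 6 fits without 1 library lost this call, at 0.0597 to 0.171. The edgeR call of Glrx5 held only without SCADD replicate 3 (0.0129; the others 0.0635 to 0.138), and that of Gnmt was lost without WT replicate 2 (0.153), WT replicate 3 (0.123) and SCADD replicate 1 (0.116).

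All 19 enzymes of the thioredoxin, peroxiredoxin and superoxide systems around Txnrd1 and Srxn1 were tested. Of these 2 rose and 1 fell, against 4.22% and 2.8% of all genes tested. Their median log2 fold change was 0.19. Sod1, the cytosolic superoxide dismutase, was at 265, 256 and 284 CPM in WT and 423, 509 and 416 CPM in SCADD replicates 1, 2 and 3. Its groups were far apart, with a log2 fold change of 0.75 ± 0.15 (SE), at an edgeR adjusted p of 0.0145. Prdx6, a peroxiredoxin that uses glutathione, rose by a log2 fold change of 0.61 ± 0.16 (SE), at an edgeR adjusted p of 0.0487. Txnip, the inhibitor of thioredoxin, fell from 87.7 ± 12.3 to 45.1 ± 11.6 CPM (SD, n = 3 each; -0.96 ± 0.19 SE in log2, edgeR adjusted p = 0.0126). When reads of either strand were counted, the log2 fold change of Txnip was -0.0025 (edgeR adjusted p = 0.995), so its fall was seen in the strand-specific column and not in the unstranded one. Without 1 library the edgeR call of Sod1 was lost for WT replicate 1 (0.0561), WT replicate 2 (0.0950), WT replicate 3 (0.0578) and SCADD replicate 1 (0.0501). That of Txnip was lost for WT replicate 2 (0.0504), WT replicate 3 (0.0589) and SCADD replicate 1 (0.0510), and that of Prdx6 held only without SCADD replicate 3 (0.0097; the others 0.104 to 0.204).

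Around Pgd and Taldo1, 14 of 15 genes of the pentose phosphate pathway and NADPH supply were tested. Of these 1 rose and 1 fell, against 4.22% and 2.8% of all genes tested. Their median log2 fold change was 0.11. Idh2, the mitochondrial NADP-dependent isocitrate dehydrogenase, was at 28.0, 28.6 and 24.1 CPM in WT and 45.4, 84.3 and 48.5 CPM in SCADD replicates 1, 2 and 3. SCADD replicate 2 was again the highest, and the log2 fold change was 1.14 ± 0.22 (SE; edgeR adjusted p = 0.0125). Pgls, the lactonase between glucose-6-phosphate dehydrogenase and Pgd, fell from 33.1 ± 0.654 to 23.2 ± 1.84 CPM (SD, n = 3 each; -0.51 ± 0.12 SE in log2, edgeR adjusted p = 0.0304). The entry enzyme G6pdx, also picked with its values known, had a log2 fold change of 0.38 ± 0.28 (SE), at an edgeR adjusted p of 0.464. The edgeR call of Idh2 was lost without WT replicate 2 (0.0544) and WT replicate 3 (0.0586), and that of Pgls held only without SCADD replicate 3 (0.0229; the others 0.0703 to 0.109).

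Ephx1 is also a known target of the xenobiotic receptor CAR. Of 15 genes in the list of CAR, PXR, their targets and other epoxide hydrolases, 12 were tested. Of these 2 rose and 0 fell, against 4.22% and 2.8% of all genes tested. The median log2 fold change was 0.38, with 9 positive and 3 negative. The negative ones, named with their values known, were Cyp2b10 at -0.83 (edgeR adjusted p = 0.326), Gstt1 at -0.24 and Cyp2c29 at -0.17. Nr1i3, which encodes CAR, was at 145, 171 and 199 CPM in WT and 315, 369 and 326 CPM in SCADD replicates 1, 2 and 3, a log2 fold change of 0.97 ± 0.16 (SE), at an edgeR adjusted p of 0.00617. Por rose from 75.1 ± 11.5 CPM to 115 ± 5.41 CPM (SD, n = 3 each; 0.61 ± 0.14 SE in log2, edgeR adjusted p = 0.0302). The call of Nr1i3 was kept in each of the 6 fits without 1 library, at 0.0023 to 0.0438, and that of Por was lost without WT replicate 1 (0.0935), WT replicate 2 (0.149) and SCADD replicate 1 (0.112).

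**Figure D5:**
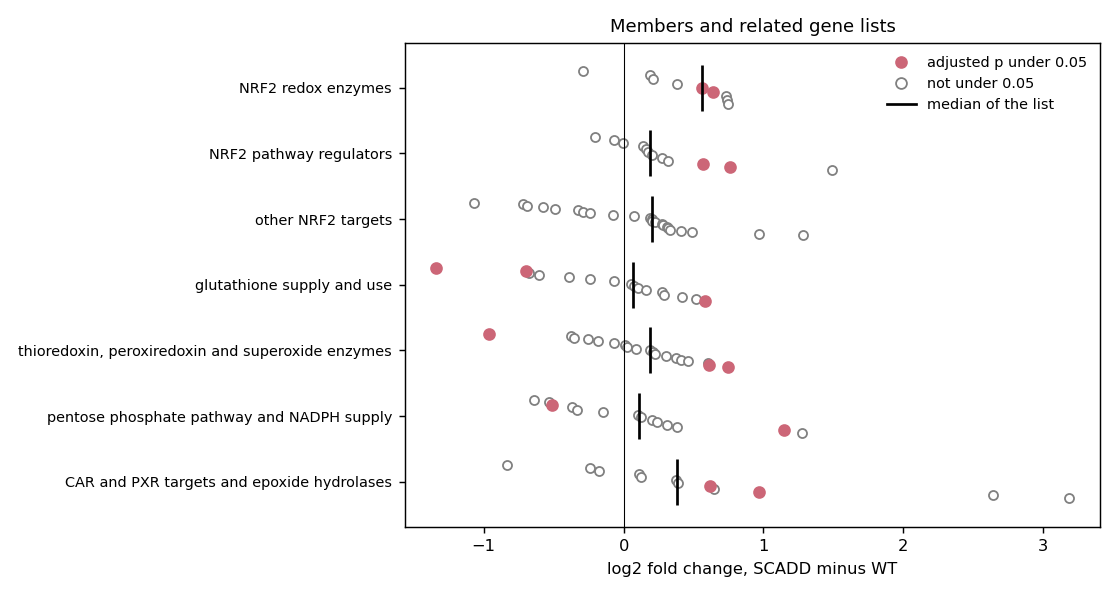
Log2 fold change of SCADD against WT (horizontal axis) for the tested genes of the members and of 6 related lists; filled points have an edgeR adjusted p under 0.05 and bars mark the medians. The members' median of 0.56 is followed by 0.38 for the CAR and PXR list and 0.20 for the other NRF2 targets.

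The liver samples hold more than hepatocytes, and fewer cells of a type cannot be told apart from less RNA per cell. The summed level of 10 pericentral markers was 2077 to 2205 CPM in WT and 2404 to 3037 CPM in SCADD. Of 9 tested, 3 were called higher and 1, Lgr5, lower, against 4.22% and 2.8% of all genes tested. The higher sum rests mostly on Rgn, which averaged 844 ± 105 CPM in WT and 1492 ± 297 CPM in SCADD (SD, n = 3 each). Glul and Oat had lower means in SCADD. Among the 9 tested, 6 log2 fold changes were positive and 3 negative. For 10 periportal markers the summed level was 3428 to 3619 and 2648 to 3798 CPM, with 2 called lower, Sds and Cdh1, and 0 higher. The sums rest mostly on Pck1, Hsd17b13 and Cyp2f2, while the median log2 fold change of the 10 was -0.64. At an unadjusted p under 0.05, 6 periportal markers were lower and 1 higher, against 10.2% and 12.4% of all genes tested. Of the 10, 5 were lower in each SCADD library than in any WT library, against 13.1% of all genes tested. For 8 Kupffer cell markers it was 216 to 293 and 166 to 293 CPM, with 0 of 8 called. Sums were 201 to 208 and 127 to 193 CPM for 8 sinusoidal endothelial markers, with 1 called lower, Lyve1. Clec4g is their largest part, with means of 114.6 CPM in WT and 74.4 CPM in SCADD. Of the 8 log2 fold changes, 7 were negative and 1 positive. At an unadjusted p under 0.05, 3 were lower and 0 higher, against 10.2% and 12.4% of all genes tested. In 4 of the 8, each SCADD library was below each WT library, against 13.1% of all genes tested. For 8 stellate cell markers the sums were 419.7 to 599.8 and 324 to 669 CPM, with 0 called. For 7 cholangiocyte markers, of which 4 were tested, they were 48.3 to 54.8 and 33.5 to 43.8 CPM, with 0 called and Cldn4 under 0.1 CPM. Of 10 lymphocyte and neutrophil markers 5 were tested and 2 called higher, Ighm and Jchain. The sums were 13.7 to 16.0 CPM in WT and 25.9 to 40.8 CPM in SCADD, and Cd3e, Cd8a and Ly6g were under 0.1 CPM. The higher sums rest mostly on Ighm, with means of 6.57 CPM in WT and 14.4 CPM in SCADD, and Jchain, with 3.67 and 11.5 CPM. Of the other tested markers, Ms4a1 had a lower mean in SCADD, and S100a8 and S100a9 had higher means. The part of all these cell types in the levels of the members was not tested.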

How the data were processed

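Poly(A) RNA from 20 mg of frozen liver per mouse was sequenced. The authors processed reads with STAR 2.7.6a and RSEM 1.3.3 with the build GRCm38, per the submitters' processing notes. Their gene annotation release is not given in the sources used here. The deposited STAR tables hold whole-number read counts per gene, not normalised, and the deposited RSEM tables hold expected counts, TPM and effective gene lengths. The column of counts for 1 strand that held 96.8% to 97.3% of stranded reads was used. Summary rows (unmapped, multi-mapped, no feature, ambiguous) stayed out of library sizes and tests. Of 55487 genes, 55141 matched GENCODE release M21, which gave symbols and coordinates.

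Genes passing filterByExpr (minimum count 10) were tested with edgeR 4.0.16 after TMM scaling (robust quasi-likelihood test, R 4.3.3), with group as the only term and Benjamini-Hochberg adjustment over the 13498 genes tested. SE is approximate, taken as log2 fold change over the root of F. Levels are CPM with TMM-scaled library sizes. They were first computed without TMM, and the scaling was changed to that of the test after those values had been seen; TMM factors were 0.952 to 1.05. Both forms are given for the overlap of Nqo1 and Ephx1. In CPM without TMM, each SCADD library was above each WT library for 13.8% of all genes tested. The reverse held for 12%. SCADD replicate 2 was highest for 28.0% of all genes tested without TMM, against 22.9% with it. On simulated data for SCADD against WT (13561 genes) edgeR called 16.4% of genes changed 1.5-fold, 68.7% of those changed 2-fold and 100% of those changed 4-fold, and 3 of 13361 unchanged genes. Replicate libraries differed by more than sampling noise (chi-square per degree of freedom 36.5 to 134.8). Where nothing else is said, intervals and limits cover counting error only.

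Named were all members, Acads, up to 4 called genes with the smallest p in each of the 6 related lists (or 2 where none was called), and the 2 genes most like each called member in profile; others are marked as chosen after their values were seen. The members, lists and tests were chosen with earlier results of these data known. The alternatives were other scalings, filters, tools, units, a replicate block and leaving out each library.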

Additional observations from a re-analysis of the deposited data

How the results depend on the processing

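The counts of called genes and the log2 fold changes of the named genes were recomputed under 21 other settings, of which log2(TPM + 1) with TPM rescaled by TMM was added after seeing the data. The low genes Cbr3, Gstm3 and Chac1 did not reach every filter and had values in 16, 17 and 17 settings. The log2 fold changes of the 9 tested members kept their sign in all 21. Those of Keap1 and Hmox1, neither called, did not: Keap1 was at -0.014 on log2(TPM + 0.1) and -0.0087 on log2(TPM + 1), and Hmox1 ranged from -0.031 (without SCADD replicate 2) to 0.17 when 1 library was left out. The median over all genes tested lay between -0.068 and 0.0035 and changed sign among the settings. The count of called genes was 947 and ranged from 395 to 1590 when 1 library was left out; it was 1702 without a low-count filter, 224 beyond 1.5-fold, 277 on log2(TPM + 1), 272 on log2(TPM + 0.1) and 528 on the rescaled TPM. Upper-quartile scaling turned the excess of higher calls, 569 against 378, into 470 higher and 482 lower genes (49.4% higher against 60.1%). The 2 called members became 4 with DESeq2, 5 without a filter and 0 beyond 1.5-fold or on any of the 3 TPM scales; leaving out 1 library gave 0 to 4. The 2 called regulators became 1 with upper-quartile scaling and 0 beyond 1.5-fold or on the TPM scales (0 to 2 without 1 library). Other NRF2 targets had 1 call without a filter (0 to 2 without 1 library). The 3 glutathione genes became 5 without a filter, 0 beyond 1.5-fold or on unscaled TPM and 1 on rescaled TPM (0 to 3). The 3 thioredoxin-system genes became 1 with RSEM expected counts, unstranded counts or rescaled TPM, and 0 beyond 1.5-fold or on unscaled TPM (0 to 6). The 2 pentose phosphate genes became 4 without a filter and 0 beyond 1.5-fold or on unscaled TPM (0 to 3). The 2 CAR and PXR genes became 0 beyond 1.5-fold and 1 on each TPM scale (1 to 3). The cause was not tested for these changes.

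Replicate numbers are shared by the groups in the labels, and correlations of same-numbered libraries' deviations were 0.0606, 0.0372 and 0.107. SCADD replicate 1 correlated nearly equally with WT replicate 2 (0.0612), while SCADD replicates 2 and 3 each correlated best with the same-numbered WT library. Correlations this small do not decide whether the numbers pair the animals, and the main test assumed no pairing. A replicate block gave 1148 called genes, 3 members (Gclc joined, edgeR adjusted p = 0.0177), 3 regulators, 3 glutathione (Chac1 lost its call, 0.0601), 2 thioredoxin-system (Prdx6 lost its call, 0.0512), 2 pentose phosphate, 2 CAR and PXR and 0 other NRF2 genes. The blocked Gclc to Gclm difference was 0.40 and the Pgd to Taldo1 difference -0.51. By exact permutation p was 0.25 each, the smallest value that 3 blocks allow.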

Other observations

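Some genes outside the named set stood out in SCADD replicate 2, and they were chosen after their values were seen. Cyp2b9, a cytochrome P450 of the CAR and PXR list, was at 1.41, 6.38 and 0.450 CPM in WT and 1.55, 68.3 and 2.92 CPM in SCADD replicates 1, 2 and 3. Gsta2, a glutathione transferase, was at 23.6, 14.5 and 18.7 CPM in WT and 14.7, 71.2 and 25.4 CPM in SCADD. Both were high in SCADD replicate 2 alone, the library in which 13 of the 23 tested other NRF2 targets and 6 of the 12 tested CAR and PXR genes were also highest.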
